A study of Mus musculus with 4 samples.

Results

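The immunoglobulin heavy chain variable segments, named Ighv in the mouse, were compared in RNA of the sciatic nerve from 6-month-old mice, HSF V30M against HSF WT. Members were all genes of the deposited table whose symbol starts with Ighv and a number, which gave 185 entries of 50593. These carry 183 symbols, since Ighv1-13 and Ighv5-8 each stand under 2 gene identifiers. The first number of a symbol gives the subgroup, and 16 subgroups are present. HSF V30M mice lack their own Ttr and carry a human TTR V30M transgene instead, and mice of both groups carry a heterozygous deletion of Hsf1 (Hsf-1), the gene of heat shock factor 1. HSF WT mice served as controls and carry no TTR transgene. The strain is given as 129S1/SvImJ in the labels and Sv/129 in the methods, and the labels list 2 samples in each group. The promoter of the transgene is not given in the sources used here.

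The table holds 1 value per gene and group and no value per mouse. No spread between mice can therefore be given, no difference below has a replicate check or a test, and each comparison describes these pooled libraries. The values are FPKM, that is, fragments scaled to transcript length in kilobases and to library depth, so that levels of different segments can be set side by side per length. Differences are given as log2((HSF V30M + 1) / (HSF WT + 1)). Depth was read from the lowest values of short genes. Within HSF WT the depths differed by 1.35-fold and within HSF V30M by 1.20-fold, and the shallower library of HSF V30M exceeded the deeper one of HSF WT by 1.04-fold. Schwann cell myelin genes, which define the nerve, were high in both groups, with Mbp (myelin basic protein) at 3854 in HSF V30M against 3441 in HSF WT. Hsf1 was at 7.94 and 15.0. Mouse Ttr was at 6.10 in the group labelled HSF V30M, where the mouse gene is null, and at 0 in the one labelled HSF WT. Read as the mouse gene alone, Ttr thus went against the labels. Reads of the human transgene on the mouse gene were not told apart, so that Ttr cannot serve as a check of the labels. HSF V30M and HSF WT below name the groups as labelled.

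A B cell makes its heavy chain gene by joining 1 V, 1 D and 1 J segment on chromosome 12, after which the V segment is transcribed from its own promoter through to the constant region. The V segment encodes most of the antigen-binding domain, and B cells of a clone share the segment they chose. Plasma cells hold large amounts of this RNA. V segment RNA in a tissue therefore stands both for the number of B lineage cells and for the RNA per cell, and in bulk nerve these cannot be told apart.

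All 185 entries lie on chromosome 12 of GRCm38 between 113572927 and 116010093. In the GENCODE M21 annotation 113 are V genes, 70 are V pseudogenes, and 2 belong to the LV class. Of the entries, 183 are on the minus strand. The reference is the C57BL/6J strain, whose heavy chain locus differs from that of 129 mice, and the part of this difference in the values was not tested. A fragment of a 129 segment may thus be listed under its nearest C57BL/6J relative. Among 182 members compared over their last 270 bases, 16 were at least 98% identical to another member, for which the split of fragments is uncertain.

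Printed here are the highest segment of each group, segments above 0 in mainly 1 of the groups beside a close relative, and the segment high in both. Each stretch is the 288 bases of the V exon that end with the cysteine codon closing the framework, from the GENCODE M21 transcripts of GRCm38, minus strand of chromosome 12. Positions are those of the whole gene, leader and intron included. The first pair shows Ighv2-9 (chr12:113879096-113879541), the highest segment of HSF WT, and Ighv2-9-1 (chr12:113769850-113770302), which was above 0 in HSF V30M but not in HSF WT. Capitals mark the 15 positions at which they differ, an identity of 94.8%.
Ighv2-9: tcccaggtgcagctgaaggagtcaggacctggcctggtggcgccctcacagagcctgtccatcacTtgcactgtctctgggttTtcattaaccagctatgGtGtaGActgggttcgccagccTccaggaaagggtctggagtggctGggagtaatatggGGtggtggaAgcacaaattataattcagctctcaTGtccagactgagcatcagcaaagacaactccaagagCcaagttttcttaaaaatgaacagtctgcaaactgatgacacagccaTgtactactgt
Ighv2-9-1: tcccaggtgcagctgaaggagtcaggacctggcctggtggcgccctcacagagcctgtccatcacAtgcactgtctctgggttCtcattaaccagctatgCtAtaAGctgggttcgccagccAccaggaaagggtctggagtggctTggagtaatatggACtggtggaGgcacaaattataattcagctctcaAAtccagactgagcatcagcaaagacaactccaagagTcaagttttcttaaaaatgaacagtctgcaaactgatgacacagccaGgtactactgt

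Further pairs show close relatives with different levels, again with capitals at the positions that differ. Ighv1-18 (chr12:114682632-114683065) and Ighv1-26 (chr12:114788372-114788805) differ at 8 positions, an identity of 97.2%. Ighv1-7 (chr12:114538495-114538965) and Ighv1-4 (chr12:114487136-114487569) differ at 7 positions, an identity of 97.6%.
Ighv1-18: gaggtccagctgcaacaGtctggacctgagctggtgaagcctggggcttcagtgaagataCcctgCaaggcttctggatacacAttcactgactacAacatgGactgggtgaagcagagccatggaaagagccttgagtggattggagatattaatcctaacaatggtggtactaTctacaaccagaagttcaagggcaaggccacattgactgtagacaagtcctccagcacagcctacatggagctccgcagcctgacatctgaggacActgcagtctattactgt
Ighv1-26: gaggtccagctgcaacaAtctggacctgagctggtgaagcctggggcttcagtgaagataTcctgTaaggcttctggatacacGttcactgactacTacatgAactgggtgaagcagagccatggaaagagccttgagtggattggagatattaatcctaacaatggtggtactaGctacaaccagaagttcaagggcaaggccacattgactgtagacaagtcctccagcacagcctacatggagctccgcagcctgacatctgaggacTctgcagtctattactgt
Ighv1-7: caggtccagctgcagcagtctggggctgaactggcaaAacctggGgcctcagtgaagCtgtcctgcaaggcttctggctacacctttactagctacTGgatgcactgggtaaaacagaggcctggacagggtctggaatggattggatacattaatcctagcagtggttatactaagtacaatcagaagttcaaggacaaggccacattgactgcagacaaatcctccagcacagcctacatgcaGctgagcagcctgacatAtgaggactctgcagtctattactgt
Ighv1-4: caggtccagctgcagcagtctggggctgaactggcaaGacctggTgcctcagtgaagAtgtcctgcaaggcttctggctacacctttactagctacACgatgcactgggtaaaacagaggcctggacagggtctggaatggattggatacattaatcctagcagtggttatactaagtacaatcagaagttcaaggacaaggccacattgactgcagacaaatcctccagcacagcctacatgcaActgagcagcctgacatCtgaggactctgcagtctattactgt

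Ighv1-53 (chr12:115158403-115158835) was among the 10 highest segments of both groups, Ighv14-3 (chr12:114059845-114060321) was the highest of HSF V30M, and Ighv12-3 (chr12:114366521-114366954) is a known B-1 cell segment listed at 0 in HSF WT. Capitals mark the final cysteine codon.
Ighv1-53: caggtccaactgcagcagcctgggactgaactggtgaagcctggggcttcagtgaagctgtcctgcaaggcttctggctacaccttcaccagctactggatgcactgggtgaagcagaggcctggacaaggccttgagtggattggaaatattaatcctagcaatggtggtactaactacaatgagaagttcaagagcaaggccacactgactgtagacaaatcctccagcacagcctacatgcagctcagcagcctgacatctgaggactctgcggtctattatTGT
Ighv14-3: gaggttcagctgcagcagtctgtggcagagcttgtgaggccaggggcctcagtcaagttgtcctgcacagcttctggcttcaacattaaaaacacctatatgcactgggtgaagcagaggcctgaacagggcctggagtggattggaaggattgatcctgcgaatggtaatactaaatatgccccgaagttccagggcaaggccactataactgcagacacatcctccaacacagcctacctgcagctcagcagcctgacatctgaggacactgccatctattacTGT
Ighv12-3: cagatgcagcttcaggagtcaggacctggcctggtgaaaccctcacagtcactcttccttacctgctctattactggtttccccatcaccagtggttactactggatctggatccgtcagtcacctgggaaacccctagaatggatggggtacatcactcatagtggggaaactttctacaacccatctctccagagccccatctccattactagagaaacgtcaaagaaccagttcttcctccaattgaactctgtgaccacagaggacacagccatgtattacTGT

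As a whole, Ighv RNA was lower in the group labelled HSF V30M. The FPKM of all members summed to 43.8 in HSF V30M against 379 in HSF WT, a sum 8.66-fold higher in HSF WT. These sums stand for about 159 to 193 fragments in HSF V30M and 927 to 1343 in HSF WT. Without Ighv2-9 the ratio was 6.89, and without Ighv2-9, Ighv1-53 and Ighv1-14 it was 5.56. In HSF V30M 36 segments were above 0 and in HSF WT 81. Both groups shared 29 of these, 7 were above 0 in HSF V30M alone, 52 in HSF WT alone, and 97 are listed at 0 in both. Of the segments above 0 in HSF WT, 64.2% are thus listed at 0 in HSF V30M, against 9.92% of all genes above 0 in HSF WT. In the other direction the share was 19.4% of the segments above 0 in HSF V30M, against 11.5% of all genes.

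Single segments were mostly lower in HSF V30M. Of 41 members with a mean of 1 or more, 31 (75.6%) were at least 2-fold lower in HSF V30M on the log2(FPKM + 1) scale and 2 (4.88%) at least 2-fold higher, with a median log2 ratio of -2.17. Over all 15620 genes with that mean, 3.94% were 2-fold lower and 3.98% higher, with a median of 0.00. Among genes of the members' transcript lengths, members included, 23.0% were 2-fold lower. Short transcripts hold few fragments, and 24 of the 41 passed the minimum while at 0 in HSF V30M, so that they had to be past the fold. Of the 17 above 0 in both groups, 7 were 2-fold lower and 2 higher.

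Segments listed at 0 in 1 group were counted from the side of each group. Of 48 members with an FPKM of at least 1 in HSF WT, 31 (64.6%) are listed at 0 in HSF V30M. The share was 2.19% of all genes with such a level and 17.1% of genes of the members' lengths, members included. Of 11 members with at least 1 in HSF V30M, 2 (18.2%) are listed at 0 in HSF WT, against 2.23% of all genes. A count of 0 still allows 3 fragments, which would have given an FPKM of 0.913 for a typical V gene such as Ighv1-53 in HSF V30M against 1.28 in HSF WT. Of the 52 segments above 0 in HSF WT alone, 30 lay above this limit in HSF V30M, and of the 7 above 0 in HSF V30M alone, 2 lay above it in HSF WT, Ighv2-9-1 and Ighv12-3. The limits cover counting error at 0 only. A fold given below as at least some value sets the listed level against this limit. It leaves out the counting error of the level itself, which for Ighv2-9-1 and Ighv12-3 rests on few fragments.

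**Figure D1:**
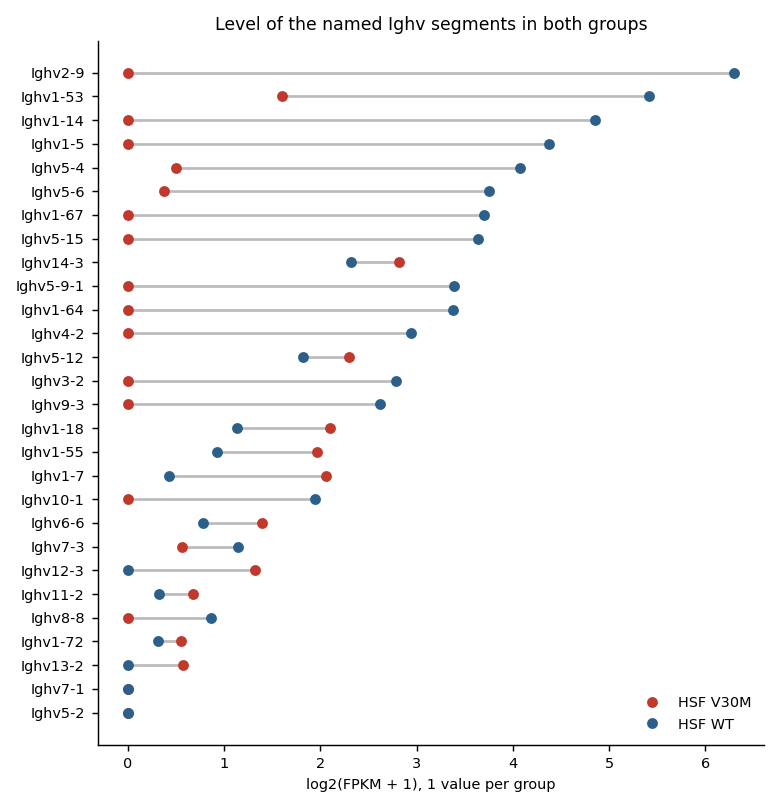
Level of the 28 named Ighv segments as log2(FPKM + 1) on the horizontal axis, with red points for HSF V30M and blue points for HSF WT, 1 value per group and no error bars. Ighv2-9, at 77.7 in HSF WT, is listed at 0 in HSF V30M, while Ighv14-3 is at 6.03 in HSF V30M against 3.98 in HSF WT. At Ighv7-1 and Ighv5-2 both points lie at 0.

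Ighv2-9 had an FPKM of 77.7 in HSF WT, from 195 to 263 fragments, and is listed at 0 in HSF V30M, at least 91.1-fold lower. It alone made up 20.5% of the Ighv sum of HSF WT. Its relative Ighv2-9-1, printed above beside it, showed the reverse, with 1.89 in HSF V30M, about 7 to 8 fragments, and 0 in HSF WT. Ighv1-53, a segment of the large subgroup 1, had 2.04 in HSF V30M against 41.6 in HSF WT, 20.4-fold higher in HSF WT, from 7 to 8 and 97 to 131 fragments. It was the only segment among the 10 highest of both groups.

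Other high segments of HSF WT were at or near 0 in HSF V30M. Ighv1-5 is listed at 0 in HSF V30M and had 19.8 in HSF WT, at least 13.7-fold lower, and its locus in the table is shared with a microRNA gene. Ighv1-64 is listed at 0 and had 9.41, at least 13.9-fold lower. Ighv1-67 is listed at 0 and had 11.98, at least 8.27-fold lower. Each of these lay above what 3 fragments would have given in HSF V30M.

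Subgroup 5, which lies near the D segments, held several of the next highest. Ighv5-4 had 0.41 in HSF V30M, about 2 fragments, and 15.8 in HSF WT. Ighv5-6 had 0.30 in HSF V30M, about 1 fragment, and 12.5 in HSF WT. Ighv5-15 is listed at 0 in HSF V30M and had 11.4 in HSF WT, at least 12.5-fold lower. For Ighv5-9-1 the values were 0 and 9.46, at least 10.3-fold lower. Ighv5-12 went the other way, with 3.91 in HSF V30M, from 13 to 16 fragments, and 2.54 in HSF WT, from 6 to 8.

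Among members past the minimum mean of 1, 6 were higher in HSF V30M, and all are V genes. Ighv14-3 had 6.03 in HSF V30M against 3.98 in HSF WT, a log2 ratio of 0.50, from 26 to 31 and 12 to 16 fragments. Ighv1-7 had 3.15 in HSF V30M, from 13 to 15 fragments, and 0.345 in HSF WT, which stands for 1 fragment, a log2 ratio of 1.63. Ighv1-55 had 2.91 and 0.897, a log2 ratio of 1.04, the latter from 3 to 4 fragments. Ighv1-7 and Ighv1-55 were the 2 segments past 2-fold in this direction.

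Ighv1-18 had 3.30 in HSF V30M against 1.19 in HSF WT, a log2 ratio of 0.97, from 8 to 13 and 2 to 4 fragments. Its relative Ighv1-26, printed above, had 0.30 and 2.57, in the other direction. Ighv6-6 had 1.62 in HSF V30M against 0.718 in HSF WT, a log2 ratio of 0.61. These levels rest on few fragments in at least 1 of the groups. Ighv1-4, the relative of Ighv1-7, is listed at 0 in HSF V30M and had 0.428 in HSF WT, about 1 fragment.

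By subgroup, the sums were lower in HSF V30M where most HSF WT RNA lay. Subgroup 1, with 93 members the largest, summed to 22.4 in HSF V30M against 186 in HSF WT, 8.29-fold higher in HSF WT. Subgroup 5 summed to 5.17 and 63.3, 12.2-fold higher in HSF WT. Subgroup 2 summed to 2.81 and 86.6, a ratio of 30.8, and without Ighv2-9, which held 89.6% of its HSF WT sum, the ratio was 3.20. Subgroup 3 summed to 0.24 and 13.1.

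Smaller subgroups were uneven. Subgroups 4, 8 and 10 are listed at 0 throughout in HSF V30M and summed to 7.30, 2.90 and 3.12 in HSF WT. In subgroup 10 Ighv10-1 had 2.85 in HSF WT, at least 3.28-fold lower in HSF V30M. In subgroup 8 Ighv8-8, its highest member, had 0.819 in HSF WT, below what 3 fragments would give in HSF V30M. Subgroup 9 summed to 0.40 and 6.89, of which Ighv9-3 gave 5.14 in HSF WT and 0 in HSF V30M. Subgroup 7 summed to 0.48 and 1.61, with Ighv7-3 at 0.48 and 1.21.

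Subgroups 6, 11, 12 and 13 had the higher sum in HSF V30M, and subgroup 14 sums lay close together. Subgroup 14 summed to 6.94 in HSF V30M against 6.55 in HSF WT, which was 15.9% of the Ighv sum in HSF V30M against 1.73% in HSF WT. Its members split, since Ighv14-4 had 0.91 and 0 while Ighv14-2 had 0 and 2.57. Subgroup 6 summed to 2.68 and 1.44. Subgroups 15 and 16 are listed at 0 in both groups. In share rather than level, subgroup 1 was at 51.3% and 49.1%, and subgroup 2 was at 6.42% in HSF V30M against 22.9% in HSF WT.

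**Figure D2:**
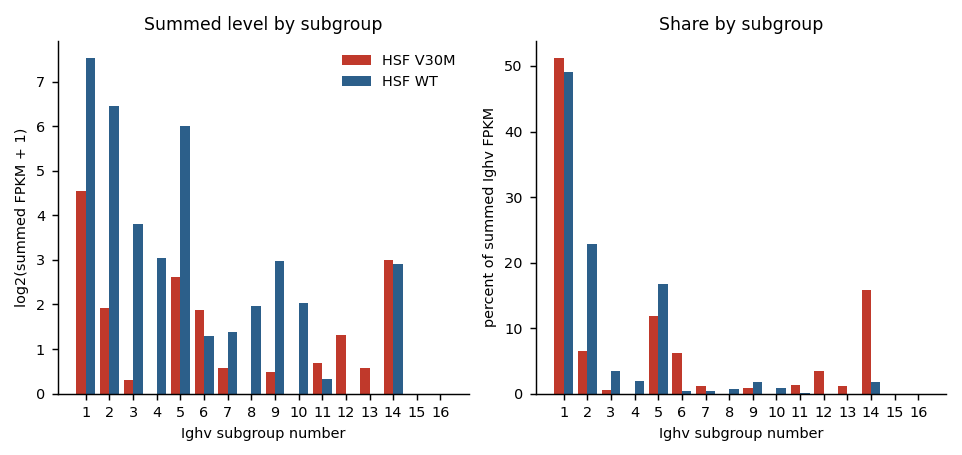
Left, summed FPKM of each Ighv subgroup as log2(sum + 1). Right, share of each subgroup in the summed Ighv FPKM of its group in percent. Red bars are HSF V30M, blue bars HSF WT, 1 value per group. Subgroup 1 holds 51.3% and 49.1%, and subgroup 14 holds 15.9% in HSF V30M against 1.73% in HSF WT.

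Segments with a textbook role were looked up next, of which Ighv1-55 is described above. Ighv11-2 and Ighv12-3 encode antibodies of B-1 cells that bind phosphatidylcholine. Ighv12-3 had 1.5 in HSF V30M, from 5 to 6 fragments, and is listed at 0 in HSF WT. This level was 1.19-fold the limit of HSF WT, a margin that leaves out the counting error of its own few fragments. Ighv11-2 had 0.60 and 0.249, the latter 1 fragment. Ighv13-2, alone above 0 in subgroup 13, had 0.49 and 0, from 1 to 2 fragments.

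Ighv1-72, known as V186.2 from the response to the hapten nitrophenyl, had 0.47 in HSF V30M against 0.246 in HSF WT, about 2 fragments and 1. It is 99.3% identical to Ighv1-62-3 over the compared bases, so that its fragments may belong to either. Ighv7-1, the S107 segment of antibodies against phosphorylcholine, is listed at 0 in both groups. Ighv5-2, the D-proximal segment known as 81X that is favoured in early B cell development, is also listed at 0 in both. At this depth a count of 0 allows up to 0.919 for Ighv5-2 in HSF V30M against 1.29 in HSF WT.

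The use of segments within each group was compared as shares of its own Ighv sum. The highest segment held 13.8% in HSF V30M (Ighv14-3) and 20.5% in HSF WT (Ighv2-9), and the 10 highest held 67.2% and 62.7%. In both groups 6 segments made up 50% of the sum. The inverse Simpson index, the number of equally used segments that would give the same evenness, was 17.1 in HSF V30M against 13.9 in HSF WT. The evenness of HSF V30M rests on few fragments.

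Few of the most used segments were shared. Of the 10 highest in HSF WT, 7 are listed at 0 in HSF V30M. Of the 10 highest in HSF V30M, 2 are listed at 0 in HSF WT. Each list of 10 was chosen by the level in its own group. Among all genes reaching 1 FPKM in HSF WT, 2.19% are listed at 0 in HSF V30M. For genes of the members' lengths, members included, this share was 17.1%. Among all genes reaching 1 FPKM in HSF V30M, 2.23% are listed at 0 in HSF WT. The last places among the 10 highest of HSF V30M rest on few fragments, 6 to 7 for Ighv6-6 and 5 to 6 for Ighv12-3. Segments listed at 0 in HSF V30M made up 71.6% of the HSF WT sum, and segments listed at 0 in HSF WT made up 15.0% of the HSF V30M sum. The 29 segments above 0 in both groups were 80.6% of those in HSF V30M and 35.8% of those in HSF WT, where the shares over all genes were 88.5% and 90.1%, and 17 of them were lower and 12 higher in HSF V30M. Over these 29 the rank correlation of the levels was -0.096 (Spearman's rho), a description across segments of the same libraries, most with few fragments.

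**Figure D3:**
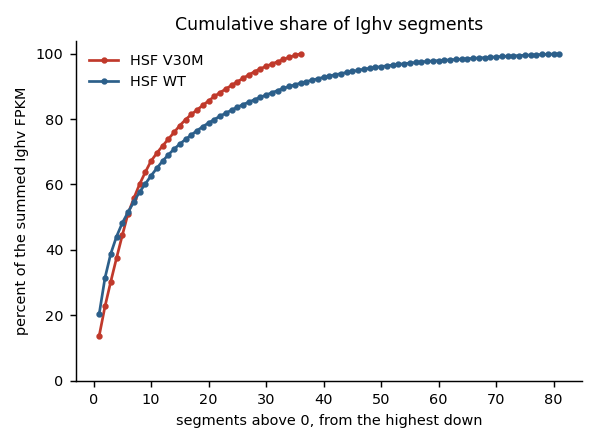
Cumulative percent of the summed Ighv FPKM, against the segments above 0 ordered from the highest down, for HSF V30M (red, 36 segments) and HSF WT (blue, 81 segments). The curves start at 13.8% and 20.5% and reach 67.2% and 62.7% at the tenth segment.

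Along the locus, V segments lie in a row from the D segments outward, and subgroups 2 and 5 lie near the D segments while subgroup 1 makes up most of the far part. In 4 equal parts of the row, counted from the D segments, the sums were 15.5 in HSF V30M against 172 in HSF WT in the first, 8.98 and 73.9 in the second, 8.31 and 81.6 in the third, and 11.0 and 51.3 in the last. The sum was thus lower in HSF V30M in each of these parts, by 11.1-fold, 8.23-fold, 9.81-fold and 4.68-fold.

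**Figure D4:**
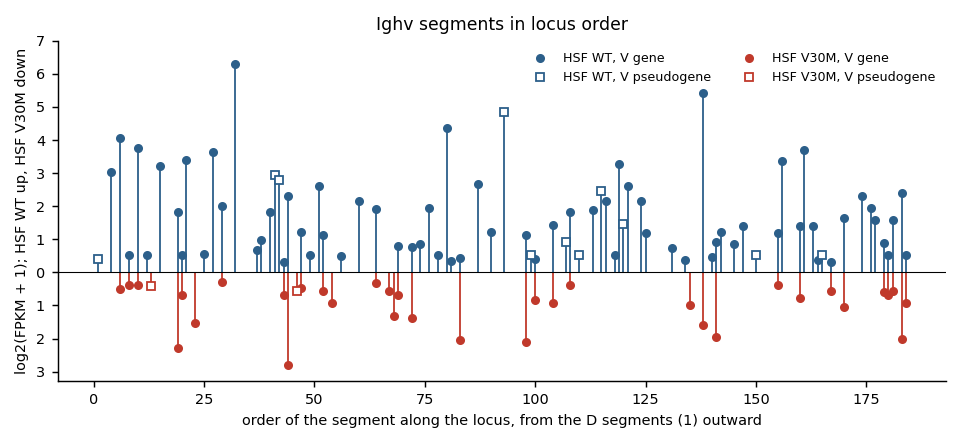
Ighv segments in their order along the locus (1 is nearest to the D segments), with log2(FPKM + 1) of HSF WT drawn upward in blue and of HSF V30M drawn downward in red. Filled circles are V genes and open squares V pseudogenes, and segments at 0 are not drawn. Levels above 0 run along the whole row in both groups, 36 in HSF V30M against 81 in HSF WT.

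V pseudogenes cannot encode a working chain, yet some were above 0. V genes summed to 43.0 in HSF V30M against 329 in HSF WT, and pseudogenes to 0.80 and 49.7, with 2 of 70 and 11 of 70 above 0. Of 67 pseudogenes long enough to compare, 57 held a stop codon in every frame of their last 270 bases, whereas none of the 113 V genes did. Of the 13 pseudogenes above 0 in either group, 12 held such a stop. The other one was Ighv1-14 (chr12:114646572-114647056), the highest pseudogene, with 27.9 in HSF WT, from 87 to 117 fragments, and 0 in HSF V30M, at least 40.8-fold lower.

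The V exon of Ighv1-14 is open, and in the C57BL/6J reference the frame read from the first start codon ends in the leader. Ighv4-2 (chr12:114013144-114013606), with 6.69 in HSF WT and 0 in HSF V30M, at least 7.86-fold lower, reads into the V exon before its stop. The same read also met a stop in some V genes, after 5 codons in Ighv1-67 and after 63 in Ighv14-3. A stop in this read therefore does not by itself set pseudogenes apart from V genes. The stretch from the first start codon to the first stop in frame is shown for Ighv1-14 and Ighv4-2, start and stop in capitals.
Ighv1-14: ATGgaatggagcTGA
Ighv4-2: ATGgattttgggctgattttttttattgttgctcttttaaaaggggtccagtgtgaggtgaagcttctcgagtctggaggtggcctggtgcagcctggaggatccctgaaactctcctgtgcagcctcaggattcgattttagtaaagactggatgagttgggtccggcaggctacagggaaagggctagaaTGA

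Ighv3-2, also a pseudogene, had 5.91 in HSF WT and is listed at 0 in HSF V30M, at least 6.39-fold lower. Whether these segments are also interrupted in 129 mice was not tested. The pseudogenes above 0 in HSF V30M were Ighv6-2, at 0.47, and an Ighv5-8 entry, at 0.33, both from 1 fragment.

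The lowest values could be divided between the libraries of a group, since 1 fragment is worth more FPKM in the shallower library. In HSF WT 25 of 54 segments with 1 transcript and an unshared locus could be resolved at up to 2 fragments, and 26 of their fragments came from the shallower library and 6 from the deeper. In HSF V30M the table gives only 2 decimals, and 12 of 28 could be resolved, with 16 fragments from the shallower library and 2 from the deeper. Most of these rare segments thus came from 1 library of each group, although both libraries gave some. Among the other genes from which depth was read, values of 1 fragment numbered 109 for the shallower library of HSF WT and 95 for the deeper. In HSF V30M, where the lowest values were left out of that reading, they numbered 53 and 42. These counts hold single fragments only, and the difference from the segments was not tested. Which mouse a library belongs to is not known, and the high segments cannot be divided in this way.

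The other parts of the antibody genes were lower in HSF V30M as well. Of the 8 heavy chain constant genes 7 were at least 2-fold lower, and their sum was 63.5 in HSF V30M against 731 in HSF WT. Ighm, the constant gene of IgM, had 19.9 and 378, and Igha of IgA had 5.81 and 72.7. Among the IgG genes Ighg3 had 1.99 and 120, and Ighg2c had 15.8 and 42.4, the latter 2.69-fold higher in HSF WT. Ighd of IgD had 0.78 and 2.43, a log2 ratio of -0.95 on the log2(FPKM + 1) scale, and was the gene not counted as 2-fold lower. All 4 joining segments are listed at 0 in HSF V30M and summed to 1039 in HSF WT, a scale that is unreliable for genes shorter than the fragments, and all 20 D segments are at 0 in both groups.

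Light chains gave the same direction. The 160 kappa variable segments (Igkv) summed to 80.0 in HSF V30M against 1251 in HSF WT, a ratio of 15.6 beside 8.66 for Ighv, a difference in ratio that was not tested. Igkv3-2, named after its values were seen, had 542 in HSF WT, and without it the Igkv ratio was 9.02. Of 46 Igkv segments with a mean of at least 1, 34 were 2-fold lower and 6 higher. Over all genes with that mean the shares were 3.94% and 3.98%, which also stand beside the counts of the other gene lists. Of 44 Igkv segments with at least 1 in HSF WT, 16 are listed at 0 in HSF V30M, against 2.19% of all genes. Any of these 16 that passed the minimum had to be past the fold. Igkc, the kappa constant gene, had 68.8 and 1282. All 4 light chain constant genes were 2-fold lower, and the 3 lambda variable segments (Iglv) summed to 0.24 and 3.77.

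Other genes of B lineage cells were lower in part. Of 6 B cell surface and signalling genes with a mean of at least 1, 5 were 2-fold lower in HSF V30M, with a median log2 ratio of -1.76. Cd79a and Cd79b, the signalling chains of the B cell receptor, had 0.65 and 0.53 in HSF V30M and 7.09 and 7.16 in HSF WT. Ebf1, which cells other than B cells also make, had 17.1 and 17.8. Of 12 plasma cell genes 9 had a mean of at least 1, and 4 of these were 2-fold lower. Among the 4 were Jchain, which joins IgM and IgA units, at 2.40 and 46.9, and Mzb1, a chaperone of antibody secretion, at 0.24 and 6.12. Xbp1 and Sdc1, also made by other cells, had 45.6 and 69.3 in HSF V30M and 52.3 and 60.5 in HSF WT. Of 8 genes of early B cells and recombination, among them Rag1, Rag2 and Dntt, none exceeded 0.305 in either group.

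Markers of other cell types also differed, and their part in the Ighv values was not tested. All 6 T cell genes with a mean of at least 1 were 2-fold lower in HSF V30M, and the list of 12 summed to 5.83 and 23.6. Of the 6, Cd3e, Cd4, Lck and Trbc2 were below 1 in HSF V30M and passed the minimum through HSF WT. None of the others in the list was 2-fold lower, and Cd3d was slightly higher in HSF V30M, at 0.51 and 0.486. Without a minimum the median log2 ratio of the list was -0.77. The 6 genes of lymph node stroma and high endothelium summed to 28.3 and 42.1, of which Ccl21a gave 25.1 and 34.9. Of the 3 with a mean of at least 1, 1 was 2-fold lower in HSF V30M. That gene was Cxcl13, which attracts B cells, with 1.0 and 4.45, while Ccl19 had 1.40 and 1.45. The high endothelial genes Glycam1, Madcam1 and Chst4 had 0.71, 0.00 and 0.12 in HSF V30M. In HSF WT they had 1.22, 0.087 and 0. The 5 adipocyte genes summed to 1131 and 1733, with Lep past 2-fold. Of the 7 Schwann cell genes none was past 2-fold, with sums of 12549 and 10950. In the opposite direction, 4 of 5 erythrocyte genes and 4 of 5 neutrophil genes were 2-fold higher in HSF V30M, with sums of 288 and 99.6 and of 101 and 24.7. The marrow progenitor genes Mpo, Elane, Prtn3 and Ctsg summed to 5.03 and 1.86.

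**Figure D5:**
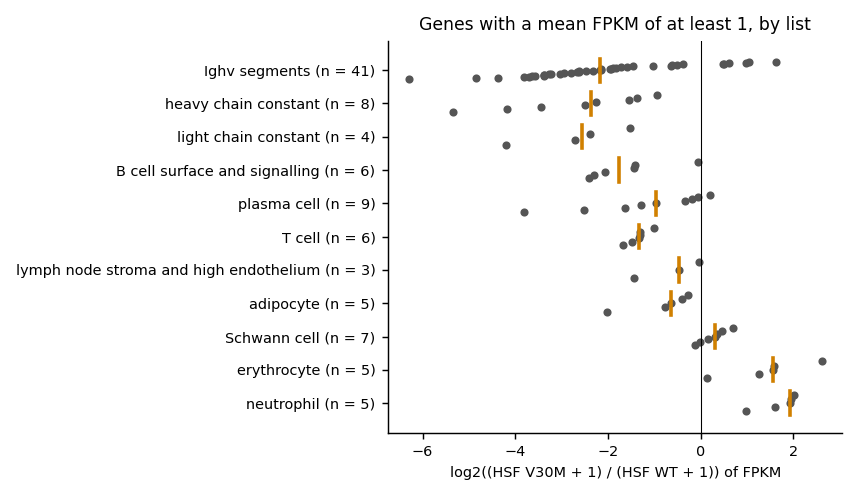
log2((HSF V30M + 1) / (HSF WT + 1)) of FPKM for each gene with a mean FPKM of at least 1, by list. Each point is a gene, the orange bar is the median of its list, and the vertical position of a point within a list carries no value. The median is -2.17 for 41 Ighv segments, -2.38 for 8 heavy chain constant genes, -1.76 for 6 B cell genes, 0.30 for 7 Schwann cell genes and 1.93 for 5 neutrophil genes.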

How the data were processed

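RNA of sciatic nerve was sequenced by the authors with Ion Torrent libraries, aligned to GRCm38 and compared with Cuffdiff. The submitters' processing notes also list STAR and Cufflinks, and versions are not given in the sources used here. The methods give n = 4 for RNA sequencing and the labels 2 samples per group. The authors deposited 1 FPKM per gene and group, written with decimal commas and, in HSF V30M, rounded to 2 decimals. The table also holds the authors' fold changes, test statistics, p-values and q-values, which were not used. Besides FPKM only the gene identifier, symbol, locus and status columns were read, and 23 genes with too many alignments were left out.

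Ratios used a pseudocount of 1, a minimum mean FPKM of 1 and a fold of 2. With 1 value per group no test was made. The design called for limma only where values per mouse were given. The worth of 1 fragment was read from single-transcript genes of 300 to 500 bases, with 197 bases taken from the length. Fragment numbers are ranges over both libraries and all transcripts, and limits at 0 are 3 fragments on the shortest usable transcript in the shallower library. The ranges leave out counting error, and the limits cover counting error at 0 only. Values were divided between libraries within a tolerance of 2% or, where larger, the rounding. The reading of depth, the division between libraries and the fold count were tested on simulated data. The simulated depths were near those of HSF WT, and the rounding and depths of HSF V30M were not simulated. Members share sequence and are not replicates. Positions, classes and sequences are from GENCODE M21, which holds 50346 of 50570 gene identifiers. Identity was computed with edlib 1.3.9.post1. Tables were handled in Python 3.11.15 with pandas 2.3.3, numpy 2.4.6 and scipy 1.17.1, and plots drawn with matplotlib 3.10.9.

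The members, gene lists and naming rule were chosen with earlier results of these data known. Named by rule were the 10 segments of highest mean, up to 10 that were furthest up and 10 furthest down in HSF V30M among those with a mean of at least 1 (6 were higher), the highest of each subgroup, and 6 with a textbook role. Ighv2-9-1, Ighv1-26, Ighv1-4, Ighv14-2, Ighv14-4, Ighv6-2 and Ighv5-8 were named after their values were seen. Alternatives were a pseudocount of 0.1, no minimum or a minimum of 5, a fold of 1.5, median-of-ratios scaling, V genes only, unshared loci only and the sum without its highest segment.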

Additional observations from a re-analysis of the deposited data

How the results depend on the processing

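No paired analysis was possible because each group has a single pooled FPKM. Leaving out replicates and limma were not run for this reason. Segments 2-fold lower in HSF V30M numbered 31 of 41 (75.6%), against 3.94% of all genes. Without a minimum they were 38 of 88 (43.2%), against 2.5% of all genes, and with V genes only 27 of 37 (73.0%). With a minimum mean of 5 they were 8 of 9, where few segments remain, against 2.92% of all genes. The other alternatives gave between 30 and 33. Among all genes the share lower was 5.56% with a pseudocount of 0.1 and 8.44% with a fold of 1.5. Segments higher past the fold numbered 2 of 41 (4.88%), against 3.98% of all genes. With a pseudocount of 0.1 they were 4 of 41, against 5.31% of all genes. Without a minimum they were 4 of 88, against 2.53%. With a fold of 1.5 they were 4 of 41, against 8.22%, and with a minimum of 5 they were 0 of 9, against 3.53%. The median log2 ratio of -2.17 was -4.97 with a pseudocount of 0.1, -0.73 without a minimum and -3.70 with a minimum of 5. The summed Ighv level of HSF WT over HSF V30M, 8.66, was 6.89 without Ighv2-9, 7.67 for V genes only and 8.28 for unshared loci. The share of the 10 highest was 68.4% for HSF V30M against 66.3% for HSF WT when V genes alone were used. Directions of the sum and the median were kept under each alternative run, and median-of-ratios scaling used factors of 1.001 and 0.999. Of 34 comparisons for subgroups 1, 2 and 5, the lists and the Igkv sum, whose ratio without Igkv3-2 was added after seeing the data, 21 moved by over 1% and none reversed. Single levels in HSF V30M rest on few fragments, since its whole Ighv sum stands for 159 to 193.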

Other observations

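The variable segments of the alpha and beta chains of the T cell receptor, which are joined in T cells as Ighv segments are in B cells, were near the limit of detection. Of 163 Trav and Trbv segments, 6 were above 0 in HSF V30M against 18 in HSF WT, with sums of 2.54 and 12.1 FPKM, 4.75-fold higher in HSF WT. Both groups shared 2 of them, and 141 are listed at 0 in both. Of the 18 in HSF WT, 16 are listed at 0 in HSF V30M, against 9.92% of all genes above 0 in HSF WT. Of the 6 in HSF V30M, 4 are listed at 0 in HSF WT, against 11.5% of all genes. Only 1 of the segments reached a mean FPKM of 1.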
